A study of Saccharomyces cerevisiae with 15 samples.

Results

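The comparison described here set *set1Δ* cells of the budding yeast *Saccharomyces cerevisiae* directly against *jhd2Δ* cells, over all genes and over both the sense and the antisense transcripts. Its members were 6 of the 15 RNA-seq libraries of the series, 3 from independent *set1Δ* cultures and 3 from independent *jhd2Δ* cultures, chosen by strain label alone. The WT libraries did not enter any test below, and WT values are given only to show where the parental level lay. In *set1Δ* the *SET1* gene, and in *jhd2Δ* the *JHD2* gene, was replaced by a KanMX marker. Both strains and WT were MATa and shared the alleles *lys2-128δ*, *his3Δ20* (as the labels spell it) and *ura3-52*. All of them also lacked both chromosomal H2A–H2B gene pairs, *hta1-htb1* and *hta2-htb2*, and lived on *HTA1-HTB1* carried by a centromeric *HIS3* plasmid, so every difference was measured on that shared histone background. Each strain was 1 line, cultured without treatment in rich glucose medium with added adenine, YPAD, to mid-log phase, and its libraries were stranded and depleted of ribosomal RNA.

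Set1 is the catalytic subunit of COMPASS, the complex that places mono-, di- and trimethyl marks on lysine 4 of histone H3. Jhd2 is the JmjC-domain demethylase that takes those marks off. The trimethyl mark is densest over the 5′ ends of transcribed genes. One strain thus lacks the enzyme that writes these marks and the other an enzyme that erases them. In yeast the methylation is known both for genes whose transcripts accumulate when it is lost and for its place near overlapping noncoding transcripts.

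The sense tables held 5712 features and 6903094, 7059913 and 7435503 counts in the *set1Δ* libraries, against 7685050, 7933237 and 7927842 in the *jhd2Δ* libraries. Antisense counts, which are reads on the opposite strand of an annotated gene, covered 5122 features and came to 72664, 74744 and 76374 in *set1Δ* and to 89883, 93374 and 91126 in *jhd2Δ*. A gene was called when edgeR's quasi-likelihood test gave a Benjamini-Hochberg adjusted p under 0.05 and the fold change was at least 1.5. Levels are normalized counts, scaled to the mean effective library of the 6, and are not corrected for gene length. They compare strains within a gene, never gene with gene.

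The deleted genes matched the labels. *SET1* (YHR119W, chromosome VIII, 346043–349285 of the R64 build, plus strand) had 46, 33 and 35 counts in *set1Δ*, against 863, 985 and 989 in *jhd2Δ* and 861, 908 and 822 in WT. *JHD2* (YJR119C, chromosome X, 644304–646490, minus strand) had 188, 183 and 155 counts in *set1Δ*, against 0, 0 and 2 in *jhd2Δ* and 198, 173 and 169 in WT. Each deletion thus left the other strain's gene near the WT count. The other subunits of COMPASS stayed under the threshold. The lowest of them were *SWD2*, *SHG1* and *SWD3*, with log2 fold changes of −0.44, −0.39 and −0.38, and the highest were *BRE2* and *SPP1*, each at 0.11.

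Of 5582 genes tested on the sense strand, 465 (8.33%) were called. In *set1Δ* 277 genes (4.96%) were higher and 188 (3.37%) were lower than in *jhd2Δ*, counting the deleted genes themselves. These 2 shares are the background for every count of sense list members below. Without the fold threshold, 1014 genes (18.2%) were higher and 991 (17.8%) lower, so a large part of the significant differences was small in size. Tested against the 1.5-fold limit itself (edgeR's glmTreat), 67 genes (1.2%) were higher and 25 (0.448%) lower, and DESeq2 with the same thresholds gave 267 (4.78%) and 175 (3.14%). The libraries of the strains did not overlap at 2675 genes (47.9%), and the median log2 fold change over all tested genes was −0.01. Called genes lay at nearly every level of expression, as the plot of fold change against mean count shows. The genes that rose most were low-count genes, with the flocculin *FLO1* as the main exception.

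**Figure D1:**
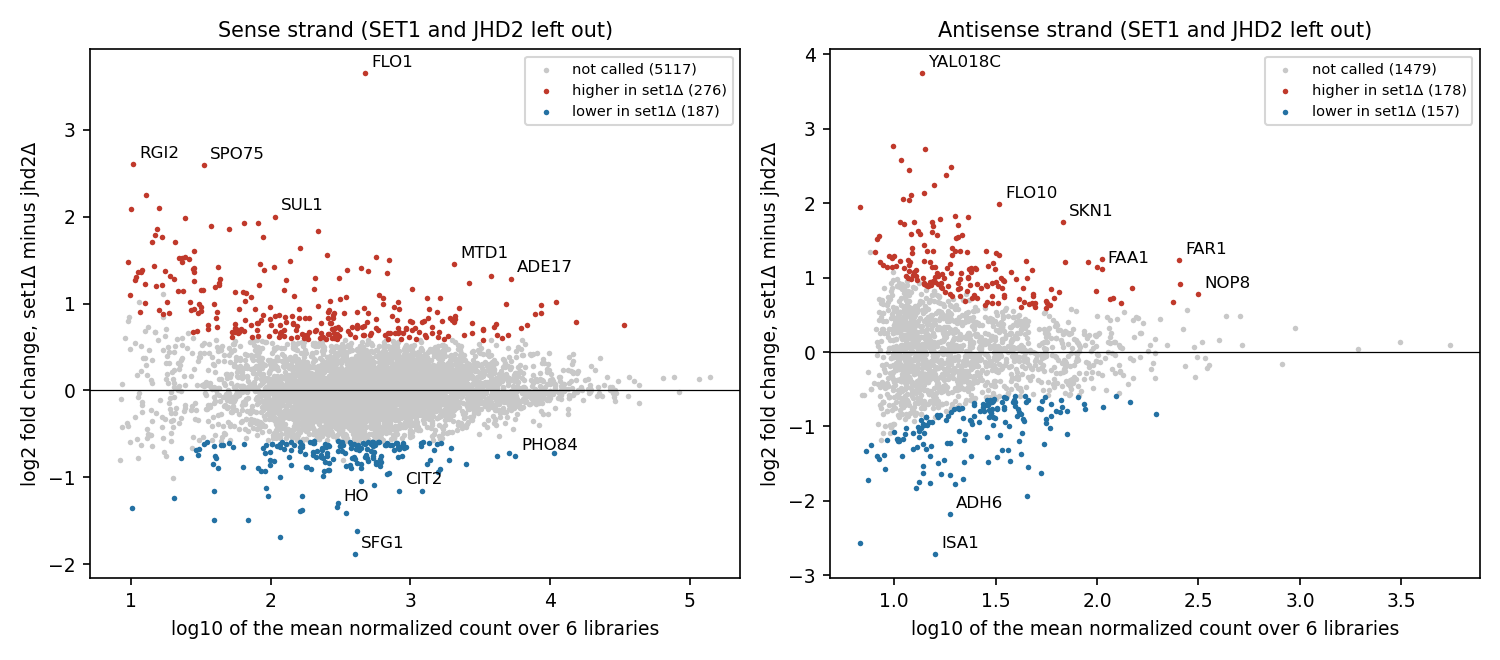
Log2 fold change (*set1Δ* over *jhd2Δ*, vertical axis) against log10 of the mean normalized count (horizontal axis), with 1 point per gene, for the sense table and the antisense table. Called genes are coloured by direction and the deleted genes are left out. Most points in both panels are grey and not called, and the antisense panel covers far lower counts than the sense panel.

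The plot of 15 genes library by library shows the spread behind the largest and the best-measured changes described below.

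**Figure D2:**
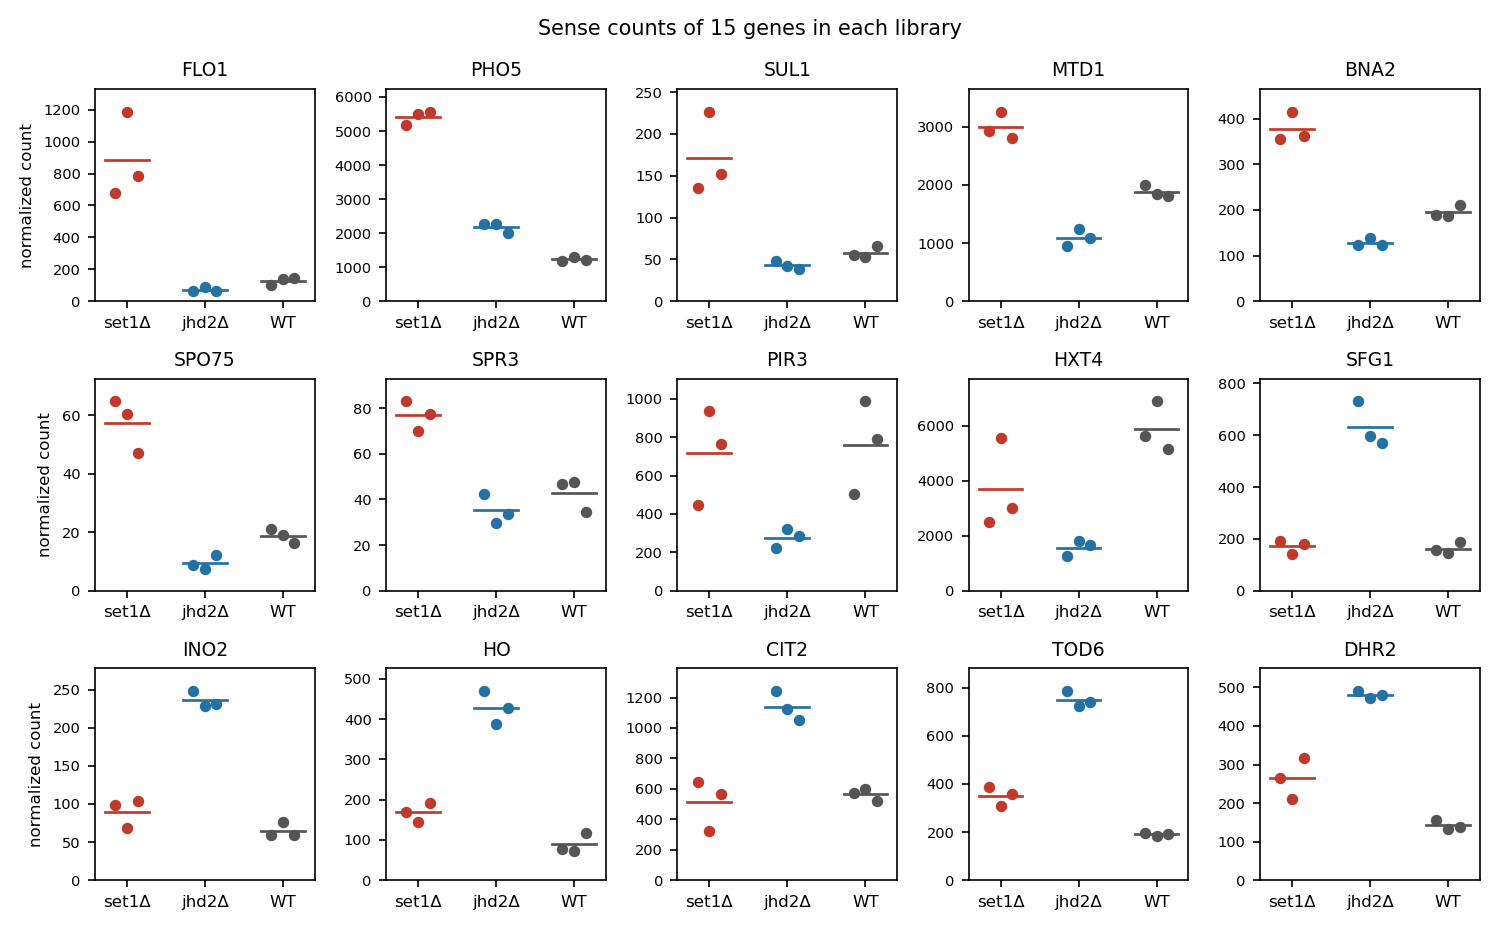
Normalized sense counts, on linear axes that start at 0, for 15 called genes in each *set1Δ*, *jhd2Δ* and WT library, 1 point per library with a bar at the mean of each strain. In each panel the *set1Δ* and *jhd2Δ* points do not overlap, whereas the WT points lie between, beside or beyond them depending on the gene.

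Genes of the cell surface held the largest rise apart from that of *JHD2* itself. *FLO1* (YAR050W, chromosome I, 203403–208016, plus strand), which encodes the lectin-like wall protein that makes cells flocculate, had normalized counts of 681, 1187 and 783 in *set1Δ*, against 61.4, 86.4 and 62.4 in *jhd2Δ* and 99.9, 142 and 143 in WT. Every *set1Δ* library was several times above every *jhd2Δ* library, and WT lay between the strains but close to *jhd2Δ*. The difference was 12.6-fold (log2 fold change 3.65, SE 0.204, adjusted p = 6.5e-08). *FLO1* shares stretches of at least 95% identity with *FLO9* and *FLO5*, so reads between these paralogs are uncertain. *FLO9* rose by 1.28 and *FLO10* by 0.84 on the log2 scale. *MUC1*, better known as *FLO11* and needed for invasive growth, rose by 0.67 and was named after its value was seen.

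Of the 20 tested genes on the same list, 3 regulators fell. *SFG1* (YOR315W, chromosome XV, 904760–905800, plus strand), a transcription factor that promotes pseudohyphal growth, had 192, 143 and 179 normalized counts in *set1Δ*, against 731, 597 and 570 in *jhd2Δ* and 155, 145 and 186 in WT. The strains were far apart, and the *set1Δ* cultures lay at the WT level. This was the largest fall of any gene tested apart from *SET1* itself (log2 fold change −1.88, SE 0.121, adjusted p = 2.8e-07). *NRG1* and *NRG2*, repressors of glucose-controlled and filamentation genes, fell by 0.84 and 0.70, and both were named after their values were seen. In all, 4 members of the list rose, these 3 fell and 13 did not pass, with a median log2 fold change of 0.02.

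Among 42 tested cell wall proteins 13 rose, none fell, and the median log2 fold change was 0.30. Over all genes tested 4.96% rose and 3.37% fell. *PIR3*, a covalently linked wall protein, had 444, 935 and 765 normalized counts in *set1Δ*, against 223, 320 and 285 in *jhd2Δ* and 504, 987 and 791 in WT. The *set1Δ* libraries lay above the *jhd2Δ* libraries and overlapped with WT, and culture 1 was the lowest in each of the 3 strains (log2 fold change 1.37, SE 0.205, adjusted p = 2.0e-04). *YJL160C*, the Pir-family gene also called *PIR5*, had 93.8, 123 and 91.2 in *set1Δ*, against 18.2, 34.4 and 27.9 in *jhd2Δ* and 134, 132 and 139 in WT, which was a 3.80-fold difference. *HPF1*, a wall mannoprotein that shares near-identical sequence with *CSS1*, rose by 1.54. The seripauperin and anaerobic mannoprotein list had 4 risers of 18 tested, led by *DAN1*, a mannoprotein of anaerobic cells. *DAN1* had 20.5, 15.1 and 13.6 normalized counts in *set1Δ*, against 0.96, 6.50 and 3.73 in *jhd2Δ*, values of a few reads. Genes such as *DAN1* and *RGI2*, with under 10 counts in every *jhd2Δ* library, passed the minimum-count filter only through *set1Δ*, so their folds are descriptions. The same holds for *STL1*, *HXT14*, *SPO75*, *LOH1* and *MF(ALPHA)1* below, whose *jhd2Δ* counts were too few to pass without *set1Δ*.

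**Figure D3:**
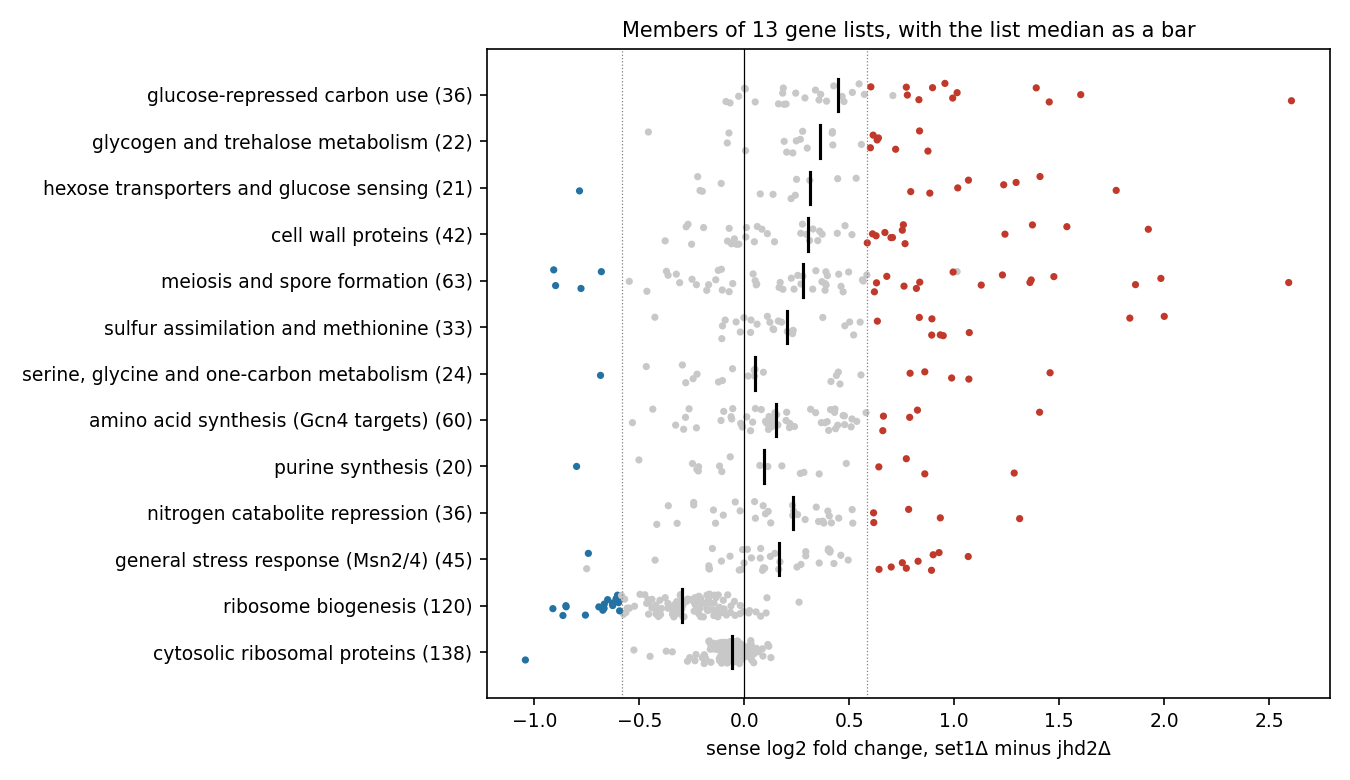
Log2 fold change (*set1Δ* over *jhd2Δ*) of each tested member of 13 gene lists, 1 point per gene, coloured by call, with a bar at the list's median. Dotted lines mark the fold threshold. Glucose-repressed, glycogen, cell wall and sulfur genes lie mostly right of 0 and ribosome biogenesis genes mostly left of it, although most members of each list stay between the lines.

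Genes that glucose keeps low were higher in *set1Δ*. Yeast on glucose shuts down genes for other carbon sources through the Mig1 repressor and its relatives, and lifts them through Snf1 and activators such as Cat8. Among 36 tested members 12 rose, none fell and 24 did not pass, with a median of 0.45. *POX1*, the acyl-CoA oxidase of peroxisomal fatty acid breakdown, rose by 1.60. *MLS1*, a malate synthase of the glyoxylate cycle, rose by 1.45, to 123 ± 14.9 normalized counts in *set1Δ*, against 44.8 ± 11.3 in *jhd2Δ* (SD, n = 3 each). *STL1*, a glycerol importer, rose by 1.39 with only 7, 4 and 10 counts in *jhd2Δ*, and its call was lost without culture 2 of either strain. *RGI2*, a small protein linked to respiratory energy metabolism, had 14.0, 25.9 and 13.6 in *set1Δ*, against 0.96, 3.72 and 3.73 in *jhd2Δ*, so its 6.09-fold difference rests on few reads.

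Hexose transporters gave 8 risers, 1 faller and 12 genes that did not pass. *HXT4*, a high-affinity glucose transporter, had 2496, 5563 and 3010 normalized counts in *set1Δ*, against 1247, 1792 and 1659 in *jhd2Δ* and 5629, 6883 and 5160 in WT (log2 fold change 1.24, SE 0.222, adjusted p = 7.7e-04). The strains did not overlap, and culture 2 of *set1Δ* alone reached the WT range. *HXT6*, a near-identical copy of *HXT7*, rose by 1.29, and the little-used family members *HXT10* and *HXT14* rose by 1.41 and 1.77. The single faller was *HXT1*, the low-affinity transporter of cells on abundant glucose, named here after its value was seen. It had 436, 452 and 451 in *set1Δ*, against 707, 789 and 810 in *jhd2Δ* and 489, 623 and 457 in WT.

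Glycogen and trehalose genes followed, with 7 of 22 tested members higher, none lower and a median of 0.36. *GPH1*, the phosphorylase that releases glucose from glycogen, had 8329, 13354 and 8699 normalized counts in *set1Δ*, against 5231, 5642 and 5691 in *jhd2Δ* and 15859, 16129 and 12648 in WT. The deletion strains did not overlap, and culture 2 stood far above the other *set1Δ* cultures and within the WT range (log2 fold change 0.88, SE 0.138, adjusted p = 3.0e-04). The glycogen synthase *GSY2* rose by 0.72, a call lost without culture 2 of *set1Δ*, and the glycogenin-like initiator *GLG2* by 0.84. On the TCA cycle list 3 of 20 genes rose and 1 fell (median 0.37). The faller was *CIT2*, whose citrate synthase is peroxisomal. Of the respiratory chain genes 3 of 45 rose, a share near the 4.96% of all genes tested, and none fell (median 0.23). In the general stress list, targets of Msn2 and Msn4, 9 of 45 rose and 1 fell, with *SPG5* at 1.07 and the ribosome-associated *TMA10* at 0.90. The faller was the aldehyde dehydrogenase *ALD3*, at −0.74, named after its value was seen. The mean log2 level of the stress list, relative to its mean over the 6 libraries, overlapped between the strains. It was −0.035, 0.271 and 0.095 in *set1Δ*, against −0.135, −0.163 and −0.033 in *jhd2Δ*, with culture 2 of *set1Δ* highest.

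Culture 2 of *set1Δ* stood apart from its sisters in these carbon lists, and its part in them was measured directly. The mean log2 level of the glucose-repressed members, relative to their mean over the 6 libraries, was 0.157, 0.491 and 0.175 in *set1Δ*, against −0.333, −0.287 and −0.202 in *jhd2Δ*, and WT gave 0.235, 0.298 and 0.129. For glycogen and trehalose the values were 0.048, 0.399 and 0.072 in *set1Δ*, −0.259, −0.156 and −0.104 in *jhd2Δ*, and 0.634, 0.683 and 0.479 in WT. Each *set1Δ* culture was above each *jhd2Δ* culture in both lists, with culture 2 highest. Without culture 2, the glucose-repressed list had 10 risers with a median of 0.34 and the hexose list had 6. Glycogen calls dropped to 2, with a median of 0.23, and to 4 when culture 1 of *jhd2Δ* was left out instead.

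**Figure D4:**
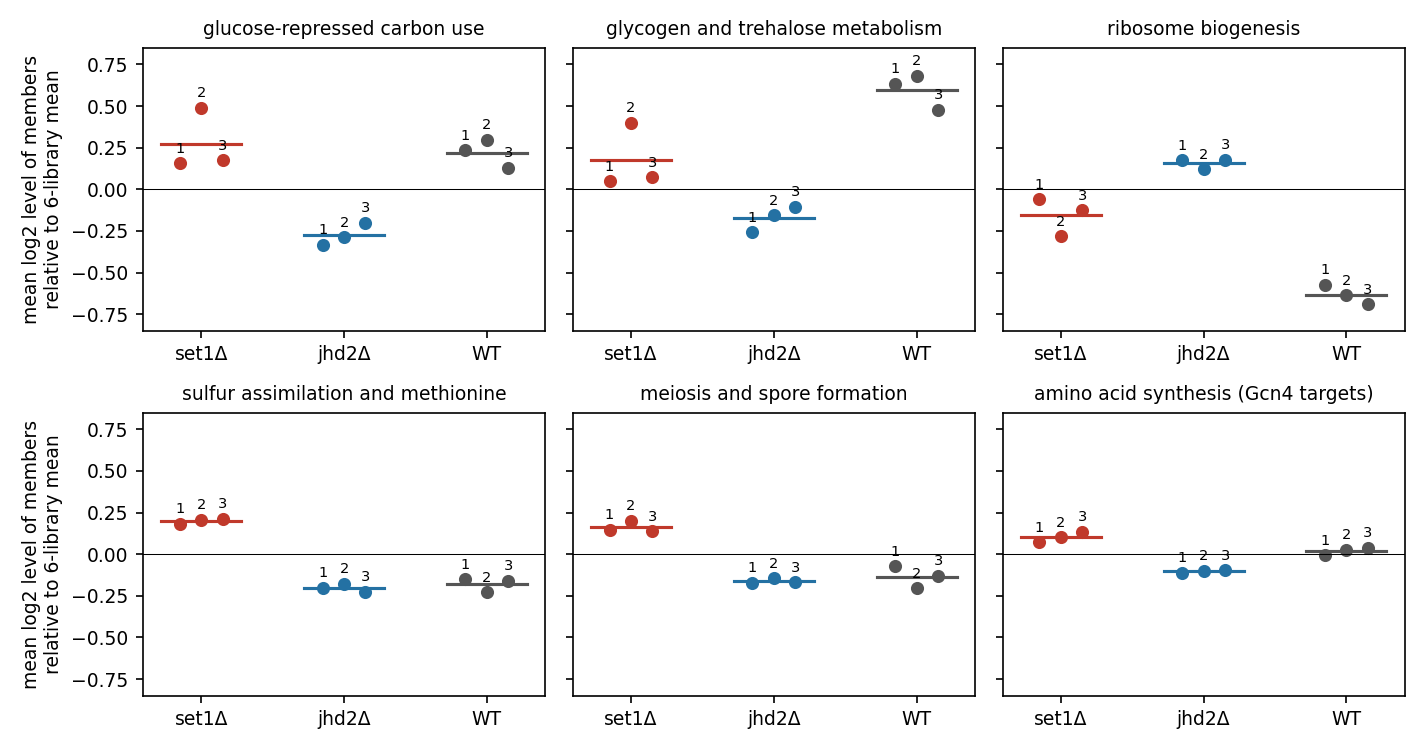
Mean log2 level of 6 gene lists in each library, relative to the list's mean over the *set1Δ* and *jhd2Δ* libraries, with points numbered by culture for *set1Δ*, *jhd2Δ* and WT. Culture 2 of *set1Δ* is the highest *set1Δ* point for glucose-repressed (0.491) and glycogen (0.399) genes and the lowest for ribosome biogenesis (−0.282), while the sulfur points of each strain lie close together.

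Sulfur assimilation, which reduces sulfate for methionine and cysteine, was higher in *set1Δ* with little spread between cultures. Of 33 tested members 9 rose, none fell and 24 did not pass (median 0.21), and the list level was 0.182, 0.208 and 0.214 in *set1Δ*, against −0.202, −0.177 and −0.225 in *jhd2Δ*. *SUL1* (YBR294W, chromosome II, 789235–791814, plus strand), a high-affinity sulfate importer, had 135, 226 and 152 normalized counts in *set1Δ*, against 48.0, 41.8 and 38.2 in *jhd2Δ* and 55.2, 53.2 and 66.1 in WT. Its *set1Δ* values were all above the others, and *jhd2Δ* was slightly below WT (4.00-fold, log2 fold change 2.00, SE 0.201, adjusted p = 8.7e-06). *SUL2*, the second sulfate importer, rose by 1.07. The pathway enzymes *MET1*, *MET10*, *MET16*, *MET6* and *MET5* rose by between 0.83 and 0.95.

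The E-box CACGTG, the core bound by Cbf1 at these genes, was found on either strand within 300 bases before the start codon of 4 of the 9 called members (44.4%), of 30.3% of the whole list and of 3.57% of all promoters. TGTGGC, the core for Met31 and Met32, was found before 4 of the 9, before 54.5% of the list and before 8.10% of all promoters. The E-box of enzymes in the same branch is shown with its flanks, read 5′ to 3′ in the gene's direction from R64, with the motif in capitals.
MET10 (chrVI:213069-213098, plus strand): agcttatagaagCACGTGaccacaattcac
MET16 (chrXVI:877793-877822, minus strand): ttatcatcatttCACGTGgctagtaaaaga
MET1 (chrXI:571332-571361, plus strand): aatgccattatgCACGTGacattacaaatt
These matches describe the letters present and not binding. Over all genes called higher the share with CACGTG was 3.25%, below that of all promoters.

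One-carbon and serine metabolism, which feeds the folate cycle and methionine, had 5 risers and 1 faller of 24 tested, with a median of 0.05. *MTD1*, the cytosolic NAD-dependent methylenetetrahydrofolate dehydrogenase, had 2936, 3260 and 2803 normalized counts in *set1Δ*, against 942, 1243 and 1090 in *jhd2Δ* and 1994, 1851 and 1816 in WT. WT lay between strains that were well apart (2.75-fold, SE 0.0947 on the log2 scale, adjusted p = 2.8e-07). *SHM2*, the cytosolic serine hydroxymethyltransferase, had 10858, 12259 and 11361 in *set1Δ*, against 5491, 6377 and 5510 in *jhd2Δ* and 8482, 9703 and 9468 in WT. *GCV2*, a glycine decarboxylase subunit, rose by 1.07. The serine dehydratase *CHA1* fell by 0.69, a call that was lost when culture 3 of *jhd2Δ* was left out.

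Purine synthesis draws on the same folates, and 4 of its 20 tested genes rose while 1, the adenine deaminase *AAH1*, fell. *ADE17*, which performs the last steps to IMP, had 6810, 8232 and 7191 normalized counts in *set1Δ*, against 2790, 3354 and 2972 in *jhd2Δ* and 5857, 6241 and 6299 in WT. The *jhd2Δ* cultures were the ones away from WT here (log2 fold change 1.29, adjusted p = 4.5e-07). *BNA2*, the tryptophan dioxygenase that starts NAD synthesis, had 355, 415 and 362 in *set1Δ*, against 124, 138 and 122 in *jhd2Δ* and 189, 187 and 210 in WT. *SNZ1*, for vitamin B6, had 487, 569 and 477 in *set1Δ*, against 184, 187 and 213 in *jhd2Δ* and 230, 237 and 233 in WT. Both genes were separate between the deletion strains, with WT closer to *jhd2Δ*.

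Amino acid synthesis genes under Gcn4 had 5 risers of 60 tested, none lower, and a median of 0.15. The share called, small as it is, was made up of *ARG1*, *ARG5,6*, *ARG7*, *GLN1* and *GDH1*, of which the first 3 make arginine and the others assimilate ammonium. *ARG1*, argininosuccinate synthetase, averaged 643 ± 53.4 normalized counts in *set1Δ* and 243 ± 15.4 in *jhd2Δ* (SD, n = 3 each), with no overlap, and WT lay between at 422, 421 and 412. *GLN1*, glutamine synthetase, averaged 19338 ± 615 in *set1Δ* and 11196 ± 772 in *jhd2Δ* (SD, n = 3 each). The Gcn4 core TGACTC was within 300 bases before the start codon, on either strand, of 4 of these 5 genes, of 61.7% of the list, of 16.2% of all genes called higher, of 8.20% of those called lower and of 7.77% of all promoters. The windows of these 4 genes are printed in the gene's direction from R64 with the core in capitals, read as GAGTCA where it lies on the other strand.
ARG1 (chrXV:218925-218954, plus strand): tgccgtatggaaGAGTCAtttaaaggcagg
ARG5,6 (chrV:295221-295250, plus strand): ggtggtaattgaTGACTCttctattttttt
GLN1 (chrXVI:641928-641957, plus strand): atgaattaaagaTGACTCcgacgcatattg
ARG7 (chrXIII:396514-396543, minus strand): ggacaggtaggaTGACTCactgcgtaattc

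Of 36 tested genes under nitrogen catabolite repression 5 rose and none fell, with a median of 0.23, beside 4.96% and 3.37% of all genes tested. Of 24 tested amino acid and peptide transporters 2 rose, *MUP3* and *OPT2*, and 3 fell, the glutamine permease *GNP1* by 0.96, *DIP5* by 0.62 (lost without culture 2 of *jhd2Δ*) and *TAT1*, named after its value was seen, by 0.59. *SEO1* (chromosome I, 7235–9016), a permease of the allantoate family counted with the sulfur list, had 329, 390 and 309 normalized counts in *set1Δ*, against 83.5, 118 and 85.7 in *jhd2Δ* and 91.4, 75.7 and 79.6 in WT. *OPT2*, an oligopeptide transporter, had 252, 245 and 241 in *set1Δ*, against 65.3, 86.4 and 83.8 in *jhd2Δ* and 80.9, 71.2 and 70.6 in WT. In both the *set1Δ* cultures were alone above a level that *jhd2Δ* and WT shared.

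The phosphate genes did not move together. *PHO5* (YBR093C, chromosome II, 429548–430951, minus strand), the secreted acid phosphatase, had 5168, 5505 and 5567 normalized counts in *set1Δ*, against 2259, 2259 and 1996 in *jhd2Δ* and 1190, 1306 and 1216 in WT. Both deletion strains were above WT, and *set1Δ* was 2.49-fold above *jhd2Δ* with little spread (log2 fold change 1.32, SE 0.0733, adjusted p = 6.5e-08). *PHO84*, the high-affinity phosphate importer, fell instead, with 4475, 3794 and 4232 in *set1Δ*, against 6971, 7216 and 6895 in *jhd2Δ* and 3384, 3554 and 3178 in WT. *PHO89*, the sodium-coupled phosphate importer, had 642, 682 and 577 in *set1Δ*, against 707, 713 and 730 in *jhd2Δ* and 187, 178 and 170 in WT, with a log2 fold change of −0.18 that did not pass. Thus the acid phosphatase was highest in *set1Δ* and the importer *PHO84* in *jhd2Δ*. Over 29 tested members of the list 2 rose, 1 fell and the median was −0.16. Those shares were near the 4.96% and 3.37% of all genes tested.

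Genes of meiosis and spore formation, most of which haploid cells on glucose keep nearly silent, had 15 risers and 4 fallers among 63 tested, with a median of 0.28. *SPO75*, a gene needed for spore wall formation, had 64.7, 60.4 and 47.2 normalized counts in *set1Δ*, against 8.64, 7.43 and 12.1 in *jhd2Δ* and 20.9, 18.9 and 16.3 in WT. The *set1Δ* cultures were well above the rest, and *jhd2Δ* was below WT (6.04-fold, log2 fold change 2.59, SE 0.257, adjusted p = 8.2e-06). Raw *SPO75* counts in *jhd2Δ* were 9, 8 and 13, too few to pass the minimum-count filter without *set1Δ*. That fold and p are therefore descriptions. *LOH1* rose by 1.98, the chitin deacetylase gene *CDA1* of the spore wall by 1.86, and the spindle pole body component *SPO74* by 1.47. The sporulation septin *SPR3* had 83.0, 70.1 and 77.6 in *set1Δ*, against 42.2, 29.7 and 33.5 in *jhd2Δ*. Those that fell were the small gene *YPR036W-A*, *SPS4*, the spore wall gene *SPS100* and the meiotic recombination gene *MND1*, by between 0.68 and 0.91.

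Regulators and markers of sporulating cells moved in part. The kinase *IME2* had a log2 fold change of −0.11 and the activator *NDT80* one of −0.06, neither called. *SPS1* at 0.76 (a call lost without culture 3 of *jhd2Δ*) and *SPR3* at 1.13 rose, *SPS4* fell by 0.90, the spore wall enzymes *DIT1* and *DIT2* at 0.39 and 0.17 were not called, and *SMK1* had too few counts to be tested. The summed normalized counts of the markers were 497, 493 and 506 in *set1Δ*, against 442, 478 and 412 in *jhd2Δ* and 513, 474 and 462 in WT, so that the *set1Δ* sums lay just above those of *jhd2Δ* and overlapped with WT. In bulk RNA a different number of cells of a type and a different amount of RNA per cell cannot be told apart. The middle sporulation core CACAAAA is part of the element read by Ndt80 and Sum1. In either orientation it was found before 8 of the 15 risers (53.3%), 2 of the 4 fallers and 33.3% of the list. It was found before 13% of all genes called higher, 8.74% of those called lower and 7.92% of all promoters. The 2 fallers with it were *SPS4* and *YPR036W-A*, so the core was not particular to the risers of the list. The windows of the 4 risers with the largest fold changes among those 8 are shown in the gene's direction from R64, with the core or its reverse complement in capitals.
LOH1 (chrX:375807-375836, minus strand): aaaatagacacCACAAAAcaataagtgaag
CDA1 (chrXII:745494-745523, plus strand): ggttgatttacTTTTGTGttttcaaaaaga
SPO74 (chrVII:185497-185526, minus strand): tcaatgttctcTTTTGTGtcacaagaaata
SPR28 (chrIV:905132-905161, minus strand): atgcgtctacaTTTTGTGtcattcccataa

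Mating-type markers are set beside WT, which has the same MATa label, because sums over different genes cannot be compared with each other. The a-specific markers summed to between 7620 and 8170 normalized counts in *set1Δ*, against 9550 to 10300 in *jhd2Δ* and 10700 to 11200 in WT, without a call for *STE2*, *STE6* or *BAR1* (log2 fold changes of −0.42, −0.46 and −0.40), for *MFA1* at 0.40 or for *MFA2* and *AGA2*, each at −0.09. The alpha-specific markers summed to 362 to 396 in *set1Δ*, 328 to 378 in *jhd2Δ* and 360 to 445 in WT. One of them, *MF(ALPHA)1*, the major alpha-factor gene, had 23.7, 29.1 and 25.2 in *set1Δ*, against 8.64, 3.72 and 5.59 in *jhd2Δ* and 8.57, 6.31 and 10.9 in WT. That was a 4.30-fold rise at a very low level (adjusted p = 3.2e-04). The gene passed the minimum-count filter only through *set1Δ*, so that fold and p are descriptions. The alpha receptor *STE3* stood at −0.07 and the alpha agglutinin *SAG1* at 0.08.

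Ribosome biogenesis, the nucleolar machinery that transcribes, cuts and assembles pre-ribosomes, was lower in *set1Δ*. Of 120 tested members 17 fell, none rose and 103 did not pass. The median was −0.30, and 7 members had a positive log2 fold change, as did 2739 of all 5582 genes tested. The *set1Δ* libraries of 76 members lay wholly lower, as did those of 24.0% of all genes tested. *DHR2*, a nucleolar DEAH-box helicase, had 264, 211 and 317 normalized counts in *set1Δ*, against 491, 472 and 481 in *jhd2Δ* and 155, 133 and 138 in WT (log2 fold change −0.86, SE 0.115, adjusted p = 8.4e-05). *NOG2*, a GTPase of the large subunit's assembly, had 1090, 758 and 973 in *set1Δ*, against 1830, 1530 and 1723 in *jhd2Δ* and 661, 629 and 602 in WT. *DBP8*, a helicase of the small subunit, had 366, 233 and 350 in *set1Δ*, against 679, 474 and 559 in *jhd2Δ* and 158, 135 and 153 in WT. WT was below both deletion strains at each of the 17 fallers, and *jhd2Δ* was the strain farthest from it.

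These calls leaned on culture 2 of *set1Δ*, the lowest of its strain in all of the genes just given. The list level was −0.061, −0.282 and −0.127 in *set1Δ*, against 0.173, 0.121 and 0.177 in *jhd2Δ* and −0.572, −0.636 and −0.690 in WT. Without culture 2 the list had 7 fallers and a median of −0.23. The proteins of the cytosolic ribosome had 1 faller of 138 and a median of −0.06. That faller was *RPS9A*, with 329, 219 and 315 in *set1Δ*, against 614, 549 and 615 in *jhd2Δ* and 346, 334 and 378 in WT.

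Of 15 tested regulators of these genes 3 fell, none rose and 12 did not pass, and the median of the list was 0.04. *TOD6* (YBL054W, chromosome II, 117589–119166, plus strand), a repressor that binds the PAC element of ribosome biogenesis promoters, had 385, 308 and 360 normalized counts in *set1Δ*, against 787, 724 and 740 in *jhd2Δ* and 196, 184 and 190 in WT. The 3 strains formed separate steps with WT lowest (log2 fold change −1.09, SE 0.0881, adjusted p = 1.6e-06). *ABF1*, a general regulatory factor, averaged 432 ± 24.3 in *set1Δ* and 791 ± 9.04 in *jhd2Δ* (SD, n = 3 each). *RAP1*, another such factor, fell by 0.63, a call lost without culture 2 of *set1Δ*.

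The PAC core GATGAG stood on either strand within 300 bases before the start codon of 13 of the 17 fallers (76.5%), of 90.0% of the list, of 36.6% of all genes called lower, of 14.4% of those called higher and of 19.1% of all promoters. The RRPE core AAAATTTT, which often accompanies it, stood before 12 of the 17 (70.6%), 76.7% of the list, 20.8% of all genes called lower, 5.42% of those called higher and 9.42% of all promoters. The list's own share was no lower than that of its called members, so neither motif marked out the fallers within it. The PAC windows of helicase, GTPase and processome genes are shown in the gene's direction from R64. Capitals mark the match nearest the start codon, as GATGAG or its reverse complement. The *DHR2* window holds 3 overlapping matches, of which only the last is in capitals.
DHR2 (chrXI:288767-288796, plus strand): tcgatgagatgaGATGAGgttatgatatat
DBP8 (chrVIII:442032-442061, plus strand): aaaaatttttacCTCATCgcggattgtaaa
NOG2 (chrXIV:723276-723305, minus strand): ttttgcccgatgCTCATCgcaaaaattttt
BUD21 (chrXV:472608-472637, plus strand): ttcttttcaagcGATGAGgttagcgaagtt

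Other genes that fell belonged to no single list. *INO2* (YDR123C, chromosome IV, 698554–699468, minus strand), a partner of *INO4* in the activator of phospholipid synthesis, had 98.1, 67.9 and 104 normalized counts in *set1Δ*, against 249, 229 and 231 in *jhd2Δ* and 59.0, 75.7 and 58.8 in WT. *HO*, the endonuclease of mating-type switching, had 169, 146 and 191 in *set1Δ*, against 470, 387 and 428 in *jhd2Δ* and 78.0, 72.1 and 117 in WT. *CIT2*, the peroxisomal citrate synthase, had 645, 321 and 568 in *set1Δ*, against 1245, 1122 and 1052 in *jhd2Δ* and 570, 600 and 520 in WT. All of these had *jhd2Δ* alone at the top and *set1Δ* near WT or between, with log2 fold changes of −1.39, −1.34 and −1.15 and adjusted p of 7.8e-06, 2.0e-06 and 1.7e-04. *FET3*, the multicopper oxidase of iron uptake, differed in kind, with 1771, 1802 and 1818 in *set1Δ*, against 3256, 3342 and 3103 in *jhd2Δ* and 2435, 2740 and 2368 in WT. There *set1Δ* was below WT and *jhd2Δ* above it. *SET6*, a SET-domain gene of low count, had 8.63, 2.16 and 6.29 in *set1Δ*, against 17.3, 13.9 and 13 in *jhd2Δ*. Its log2 fold change of −1.35 (adjusted p = 0.023) was called in 9 of 13 alternative analyses and lost without culture 3 of *set1Δ*, without culture 2 of *set1Δ*, without culture 1 of *jhd2Δ* and with DESeq2. *SET6* passed the minimum-count filter only through *jhd2Δ*, so that fold and p are descriptions.

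A gene beside a well-known noncoding transcript did not reach the threshold. *SER3*, which lies downstream of the regulatory transcript *SRG1*, had 2203, 2845 and 2462 normalized counts in *set1Δ*, against 1600, 1760 and 1746 in *jhd2Δ* and 17502, 20490 and 19386 in WT. The paper reports that *SRG1* transcription was unaffected in both deletion strains. Both deletion strains lay far below WT, and the difference between them, 1.47-fold (adjusted p = 2.9e-04), fell just short of the 1.5-fold limit.

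The genes beside the replaced loci were read on both strands. *ORC6*, next to *SET1* (chromosome VIII, 344321–345628, minus strand) and encoding a subunit of the origin recognition complex, had 430, 412 and 424 normalized counts in *set1Δ*, against 190, 219 and 200 in *jhd2Δ* and 183, 172 and 157 in WT. Only *set1Δ* departed, by 2.08-fold (adjusted p = 2.1e-06). *TOM71*, which converges with *ORC6*, had antisense counts of 29.2, 32.4 and 31.5 in *set1Δ*, against 15.6, 13.3 and 17.2 in *jhd2Δ*, a call lost with DESeq2, and its sense transcript was not called (log2 fold change 0.07). *MSH1* and *LSM12*, on the other side of *SET1*, at −0.32 and −0.22, were not called. None of the 4 nearest neighbours of *JHD2*, from *STE24* to *ATP2*, was called on the sense strand.

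The share of called genes was larger near chromosome ends, a difference that was not tested. Within 20 kb of an end 20 of 132 tested genes were higher in *set1Δ* (15.2%) and 7 lower (5.3%), against 4.72% and 3.32% of the 5450 genes farther in. On the antisense strand 13 of 45 genes near an end were higher (28.9%) and 5 lower (11.1%), against 9.32% and 8.64% farther in. Neighbouring genes called in the same direction in unbroken runs of 3 were rare. Such runs were *SEO1*, *FLO9* and *GDH3* on the left arm of chromosome I, *GIP1*, *ZTA1* and *FMP23* on chromosome II, and *YNR064C*, *YSN1* and YNR066C on chromosome XIV (749136–755035), and all rose. *YNR064C*, an epoxide hydrolase, led the last, with 107, 160 and 121 in *set1Δ*, against 35.5, 39.0 and 27.0 in *jhd2Δ* and 29.5, 18.9 and 32.6 in WT.

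Antisense reads were scarcer in *set1Δ*. For each 100 sense counts there were 1.05, 1.06 and 1.03 antisense counts in *set1Δ*, against 1.17, 1.18 and 1.15 in *jhd2Δ* and 1.20, 1.20 and 1.19 in WT. The *set1Δ* libraries lay below all others, with means of 1.05 ± 0.0167 in *set1Δ* and 1.17 ± 0.0143 in *jhd2Δ* (SD, n = 3 each). The exact two-sided permutation test over the 6 libraries gave p = 0.1, the smallest value that 3 cultures against 3 allow.

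Gene by gene, 336 of 1815 tested antisense features (18.5%) were called, at far lower counts than on the sense strand. Antisense RNA was higher in *set1Δ* at 178 (9.81%) and lower at 158 (8.71%), after scaling to the antisense totals. When the sense library sizes were used instead, which keeps the overall shortage of antisense reads in view, the median log2 fold change moved to −0.14 and the split became 120 higher and 239 lower. Under DESeq2 the antisense calls were fewer, with 79 risers (4.35%) and 57 fallers (3.14%), and glmTreat left 52 (2.87%) and 31 (1.71%). Changes given for single loci below are relative to the antisense scaling.

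Loci with more antisense RNA included *YAL018C* (*LDS1*, a spore lipid-droplet gene), with 18.7, 23.4 and 34.7 normalized antisense counts in *set1Δ*, against 2.75, 2.66 and 0 in *jhd2Δ* and 0.89, 3.26 and 1.65 in WT. This was the largest antisense rise (log2 fold change 3.75, SE 0.470, adjusted p = 6.4e-07), and only *set1Δ* stood out. The locus passed the minimum-count filter only through *set1Δ*, as *NMD5* did, so that fold and p are descriptions of loci that had to differ. *SKN1*, for glucan synthesis, had 102, 111 and 101 in *set1Δ*, against 23.8, 31.9 and 37.0 in *jhd2Δ* and 61.4, 54.5 and 58.6 in WT, while its sense transcript stood at −0.06. *FAR1*, the cell-cycle inhibitor of the pheromone response, had the best-measured rise, with 334, 383 and 347 in *set1Δ*, against 148, 159 and 145 in *jhd2Δ* and 234, 239 and 209 in WT (log2 fold change 1.24, SE 0.121, adjusted p = 9.3e-09). WT lay between the deletion strains at both loci. The *FAR1* sense transcript fell by 0.77. *NMD5*, a nuclear import receptor, had 35, 30.1 and 32.5 antisense counts in *set1Δ*, against 3.66, 7.98 and 5.42 in *jhd2Δ*, and its sense transcript fell by 0.64, a call lost without culture 2 of *set1Δ*.

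Loci with less antisense RNA in *set1Δ* were led, after *SET1* itself, by *ISA1*, a mitochondrial iron-sulfur assembly gene. It had 5.84, 2.23 and 4.34 normalized antisense counts in *set1Δ*, against 29.3, 24.0 and 29.8 in *jhd2Δ* and 3.56, 4.07 and 9.90 in WT (log2 fold change −2.71, SE 0.361, adjusted p = 1.4e-06). Here *jhd2Δ* was the only strain with appreciable antisense RNA, and *ISA1*, like *ADH6* and *LSC1* below, passed the minimum-count filter only through it. *YLR446W*, a hexokinase-like gene, had 19.9, 21.2 and 15.2 in *set1Δ*, against 70.5, 74.5 and 70.5 in *jhd2Δ* (adjusted p = 3.6e-08). *ADH6*, an alcohol dehydrogenase, had 8.17, 5.58 and 6.51 in *set1Δ*, against 26.6, 30.2 and 36.1 in *jhd2Δ*. Antisense RNA over *SET1* was 0 in every *set1Δ* library, against 12, 12 and 20 raw counts in *jhd2Δ*, which is at least 11.8-fold lower in *set1Δ* by a floor of 3 counts over the group.

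Antisense RNA over carbon genes was called lower at more genes than higher in the glycogen and glucose-repressed lists but not in the hexose list. Over all antisense features tested 9.81% were higher and 8.71% lower, which is the background for the counts here. Of 13 tested glycogen and trehalose members 5 were lower and none higher (median −0.40), among them *GLG2* at −1.73 (lost without culture 2 of either strain and with voom), the phosphatase subunit *GAC1* at −1.12 and the phosphoglucomutase *PGM1* at −0.94. Of 26 tested glucose-repressed members 7 were lower, 1 higher and 18 did not pass (median −0.13). The riser was the carnitine acetyltransferase *YAT1*, at 1.58, and the lowest were the peroxisomal isocitrate dehydrogenase *IDP3* at −1.63 and the phosphatase regulator *REG2* at −1.02, a call held in 8 of 14 alternatives and lost with DESeq2. Among the other lower calls, *GIP2* of the glycogen list and *FAA2* of the glucose-repressed list each held in 6 of 14 alternatives and were lost with DESeq2. *REG2*, *GIP2* and *FAA2* passed the minimum-count filter only through *jhd2Δ*, so those calls are descriptions. The counts of lower members given above include them. Of 16 tested hexose transporter genes 3 were higher and 1 lower (median −0.01). The MATa mating list had 4 risers, *FAR1*, *FUS1*, *STE18* and *PRM8*, and 1 faller of 18 tested. The libraries of *FUS1* overlapped, and its call was held in 9 of 14 alternatives and lost with DESeq2. With 4, 7 and 17 raw counts in *jhd2Δ*, *FUS1* antisense passed the minimum-count filter only through *set1Δ*, so that call is a description. The hexose transporter *HXT10* rose on both strands, by 1.81 antisense and 1.41 sense. Its raw antisense counts in *jhd2Δ* were 10, 13 and 11, at the edge of the minimum-count filter, so the antisense fold is a description.

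**Figure D5:**
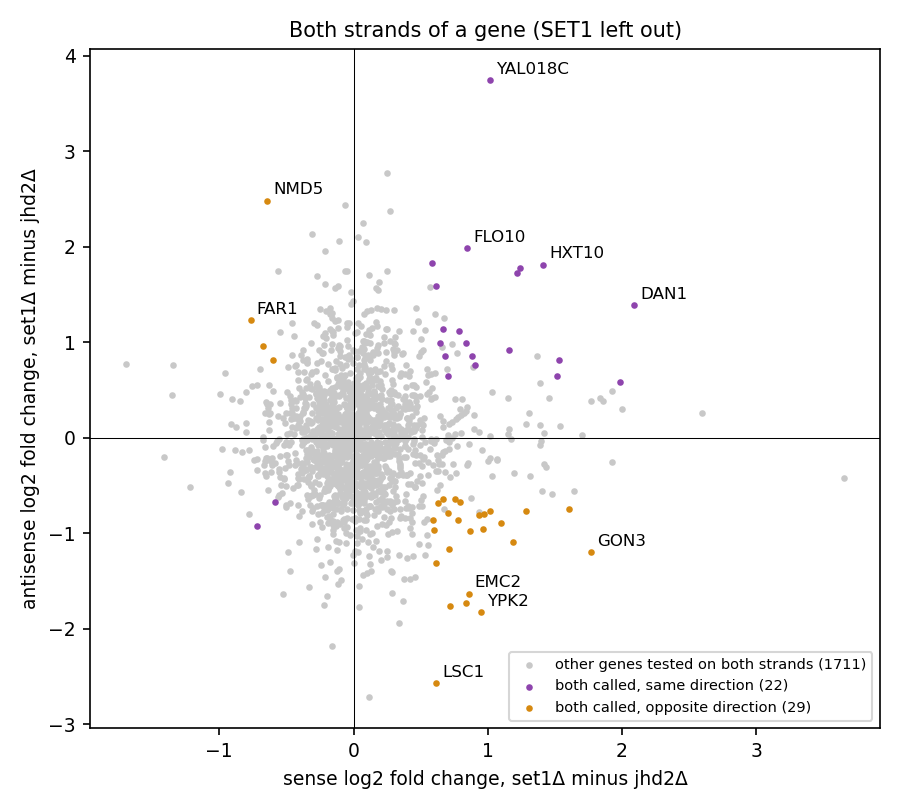
Antisense log2 fold change (vertical axis) against sense log2 fold change (horizontal axis), *set1Δ* over *jhd2Δ*, for genes tested on both strands, with *SET1* left out. Genes called on both strands in the same direction and in opposite directions are coloured separately. The cloud is round (Pearson's r 0.003), and the coloured points occupy all 4 corners.

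The sense and antisense differences showed no correlation across genes. Over 1762 genes tested on both strands, *SET1* left out, Pearson's r was 0.003 and Spearman's rho −0.002, a description across genes that share the same 6 cultures. Among the 1763 genes, 190 (10.8%) were called on the sense strand, 131 higher (7.43%) and 59 lower (3.35%). On the antisense strand 329 (18.7%) were called, and 52 genes were called on both. The directions were opposite at 29 genes and alike at 23. Of the genes with a higher sense transcript in *set1Δ*, 19.1% had lower and 15.3% higher antisense RNA, beside 8.91% and 9.76% of all 1763 genes. Of those with a lower sense transcript, 6.78% had higher and 5.08% lower antisense RNA.

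Among the opposite loci *LSC1*, a subunit of succinyl-CoA ligase, had 1869, 1898 and 1931 normalized sense counts in *set1Δ*, against 1272, 1254 and 1201 in *jhd2Δ*. Its antisense counts were 3.50, 2.23 and 0 in *set1Δ*, against 11.9, 10.6 and 12.6 in *jhd2Δ*. Both sets were separate, although the sense change (log2 fold change 0.61) was close to the limit and lost without culture 3 of *jhd2Δ* or with library totals, and the antisense one (−2.57) rests on about 10 reads. The kinase gene *YPK2* (antisense −1.82, sense 0.95) had the same arrangement.

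Some called antisense features lay where a convergent gene ends within 300 bp, although calls were not more frequent there. In that arrangement 64 of 668 antisense features were higher (9.58%) and 31 lower (4.64%), whereas with no opposite-strand gene so close 107 of 1000 were higher and 107 lower (10.7% each). The remaining classes leaned the other way. With a divergent gene within 300 bp 6.12% of 98 were higher and 15.3% lower, and with an overlapping gene 2.04% of 49 were higher and 10.2% lower. Of 85 called antisense features whose convergent neighbour was tested, 12 had a neighbour called on its sense strand in the same direction and 0 in the opposite direction. Of all genes tested on the sense strand 8.33% were called in either direction. The correlation of the antisense change with the neighbour's sense change was 0.29 over 620 pairs. *STE18*, the gamma subunit of the mating G protein, had 142, 125 and 113 antisense counts in *set1Δ*, against 60.5, 58.5 and 45.2 in *jhd2Δ* and 62.3, 43.1 and 42.9 in WT. Its convergent neighbour *EMC2*, a subunit of the membrane protein complex of the endoplasmic reticulum and named after its values were seen, had 931, 1010 and 933 sense counts in *set1Δ*, against 572, 513 and 502 in *jhd2Δ* and 514, 445 and 491 in WT. So the sense transcript on one strand and the antisense reads beyond its end were raised in the same cultures. The *ORC6* and *TOM71* pair described above had the same form.

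WT, which took no part in the tests, lay in different places for the risers and the fallers. Of the 277 genes higher in *set1Δ*, 137 had a WT mean nearer *set1Δ* and 140 nearer *jhd2Δ*. Of the 188 lower genes, 133 (70.7%) had WT nearer *set1Δ*. By list, WT was nearer *jhd2Δ* at 14 of 15 meiosis risers and 6 of 9 sulfur risers, and nearer *set1Δ* at 8 of 9 general stress risers and 10 of 13 cell wall risers. At 5 of the 7 glycogen risers WT was higher than *set1Δ* itself. On the antisense strand WT was nearer *jhd2Δ* at 125 of the 178 features higher in *set1Δ* and at 97 of the 158 lower ones.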

How the data were processed

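The authors aligned stranded reads with Novoalign 2.8.1 to sacCer3 (R64) and deposited whole-number counts per gene for the sense and the antisense strand. Their normalized values and DESeq comparisons were not used. Of 5607 sense identifiers found in the RefSeq annotation, 5587 had its coordinates. From the deposited counts of the 6 libraries, edgeR 4.0.16 (R 4.3.3, TMM scaling, filterByExpr with a minimum count of 10, glmQLFit and glmQLFTest, *set1Δ* over *jhd2Δ*) was fitted to each strand separately, with Benjamini-Hochberg adjustment over all genes tested. Calls needed an adjusted p under 0.05 and a 1.5-fold change. SE was taken as the log2 fold change over the square root of F. The fit was tested on simulated counts. Intervals and floors cover counting error only. Deviations of same-numbered cultures correlated at 0.261, 0.147 and 0.128 on the sense strand (0.097, 0.026 and 0.059 antisense). Those of differently numbered cultures ran from −0.273 to 0.146 on the sense strand. The numbers were treated as a pairing only in an alternative fit.

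The members and the 44 gene lists were chosen with earlier results of these data known. Genes were named by rule: the 12 largest sense and 8 largest antisense changes in each direction among called genes whose libraries did not overlap, up to 4 called members per list, the deleted genes with their neighbours, genes the study had measured singly, and the top 6 called on both strands. Exceptions are stated. Near-identical copies share at least 95% over 100 bases (blastn 2.17.0+). Alternatives changed the tool (DESeq2 1.42.0, limma 3.58.1 voom), scaling, filter, thresholds, libraries and block.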

Additional observations from a re-analysis of the deposited data

How the results depend on the processing

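The 277 higher and 188 lower sense genes became 67 and 25 when edgeR's glmTreat tested against the 1.5-fold limit itself, and 81 and 20 at an adjusted p under 0.01 with a 2-fold change. DESeq2, other scalings, other filters and voom kept both counts within 1.5 times. Leaving out 1 culture gave 233 to 314 higher and 136 to 225 lower. The 178 and 158 antisense calls became 79 and 57 with DESeq2, 29 and 36 with a minimum of 50 counts, 52 and 31 with glmTreat, and 69 and 45 at the stricter thresholds. Leaving out 1 culture gave 134 to 165 higher and 107 to 139 lower. Scaling by sense library sizes gave 120 and 239. With the culture number as a replicate block the counts were 277 and 194 sense and 191 and 174 antisense, and the block changed no named gene's call. The difference in antisense per 100 sense counts, −0.119, was −0.101 as a median over genes, −0.117 without overlapping genes, and −0.127 to −0.110 with 1 culture left out. No called named gene changed direction, whereas uncalled ones near 0, such as *IME2* (−0.23 to 0.07), *NDT80*, *STE3* and *DIT2*, crossed it. Under glmTreat glycogen, hexose transporter and ribosome biogenesis genes had no calls left, and sulfur kept 8 and meiosis 4 risers. The low antisense counts per locus limit what can be called there.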
